A study of Homo sapiens with 24 samples.

Results

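The genes described here encode histones, the proteins around which DNA is wrapped, apart from the transcribed pseudogenes H3F3AP4 and HIST2H2BC. All were read in poly(A)-selected RNA. They were chosen by name and by detection. A symbol counted as a histone gene if it began with HIST1H to HIST4H, H2AF or H3F3, or was H1F0 or H1FX. Of 25277 symbols in the deposited table, 87 matched, and the 54 with a value above 0 in at least 4 of 24 samples are the genes described. Of these, 43 are replication-dependent (symbols starting with HIST) and 11 are variants. The 33 other matching symbols comprise 24 listed at 0 in every sample and 9 above 0 in 1 to 3 samples. HIST1H2BL, seen in 5 samples, lay just inside the detection threshold, while HIST1H2BF and HIST1H3J, seen in 3, lay just outside it. Detection chose the genes, so it is given as a description only.

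The study used 22Rv1DR and DU145DR, aggressive sublines made from the human prostate cancer cell lines 22Rv1 and DU145. Each was treated with 1 of 2 small interfering RNAs (siRNAs) against POM121, a membrane protein of the nuclear pore, or kept as a control, which the labels name only as Control. The 22Rv1DR groups were siPOM121 construct 2 (libraries 4C and 5C), siPOM121 construct 1 (4B and 5B) and control (4A and 5A). The DU145DR groups were siPOM121 construct 2 (1C and 2C), siPOM121 construct 1 (1B and 2B) and control (1A and 2A). All groups share the same culture medium and extraction kit, and the sublines themselves are the only lines studied, with no parental line beside them. The 24 samples are 12 libraries, each sequenced on 2 lanes, so n is 2 libraries a group. Whether a group's 2 libraries derive from separate cultures is not stated, and p-values therefore measure only the spread between these libraries. Values are FPKM, fragments scaled to transcript length and to the total mapped, with a floor of 1 FPKM that the table lists as 0. In bulk RNA, fewer cells of a kind and less RNA per cell cannot be told apart.

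Most histones are made during S phase from clustered genes whose messengers end in a conserved stem-loop in place of a poly(A) tail, bound by the stem-loop binding protein SLBP. Variant histones such as H2A.Z, macroH2A, H3.3 and H1.0 come from single genes with ordinary polyadenylated messengers and are made throughout the cell cycle. Poly(A) selection therefore recovers variant messengers well, and of the replication-dependent genes it recovers the share of transcripts that carry a tail. That share is known to be larger in cells that leave the cycle or differentiate.

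The stem-loop is shown for the genes on which the results turn, read from GENCODE v29 transcripts (GRCh38). Capitals mark the 16 bases of the stem-loop, with 5 bases on each side. HIST1H3H, HIST2H2AA3, HIST2H2BE and HIST3H2A share the same 16 letters, and the others differ from them within the stem or the loop. HIST1H3H and HIST1H2BD lie on chromosome 6, HIST2H2AA3, HIST2H4A, HIST2H2BE and HIST3H2A on chromosome 1, and the variant H2AFX on chromosome 11.
HIST1H3H: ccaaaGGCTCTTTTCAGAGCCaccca
HIST2H2AA3: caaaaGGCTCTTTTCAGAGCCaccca
HIST2H4A: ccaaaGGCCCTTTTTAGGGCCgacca
HIST2H2BE: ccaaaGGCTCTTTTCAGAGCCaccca
HIST1H2BD: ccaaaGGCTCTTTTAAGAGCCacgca
HIST3H2A: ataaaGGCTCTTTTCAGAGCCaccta
H2AFX: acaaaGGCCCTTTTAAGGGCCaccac

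A stem-loop of this form was present in 54 of 19669 protein-coding genes, or 0.275%, and 32 of those carry a histone symbol of the pattern above. Annotated transcripts run on past it by very different lengths. The transcript of HIST1H3H continues for 769 bases, that of HIST2H2BE for 1729 bases and that of HIST2H2AA3 for 35 bases. H2AFX, the variant that keeps a stem-loop, has a protein-coding transcript with 1044 bases after it. Of the 43 replication-dependent genes, 19 have a transcript that goes on for more than 100 bases (median of the genes' mean levels 4.37 FPKM), 7 have one that stops within 100 bases (3 FPKM) and 3 have transcripts with no match (1.98 FPKM). The remaining 14, HIST1H1C and HIST1H2BK among them, are annotated as their coding part only (1.59 FPKM), so their ends could not be read. The other 10 variant genes have no stem-loop and a median of 139 FPKM.

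The promoters of both replication-dependent H1 genes and of HIST3H2A, which was read in 22Rv1DR alone, are shown from RefSeq (GRCh38.p14), 250 bases before to 50 bases after the annotated start. Capitals mark matches, on either strand, to the TATA box (TATAAA or its complement TTTATA, which can overlap each other), the CCAAT box (CCAAT or ATTGG), the octamer ATTTGCAT and the H1 box (AAACACA or TGTGTTT). HIST1H1C is at chr6:26056421-26056720 on the minus strand, HIST1H1E at chr6:26156079-26156378 on the plus strand and HIST3H2A at chr1:228457824-228458123 on the minus strand.
HIST1H1C: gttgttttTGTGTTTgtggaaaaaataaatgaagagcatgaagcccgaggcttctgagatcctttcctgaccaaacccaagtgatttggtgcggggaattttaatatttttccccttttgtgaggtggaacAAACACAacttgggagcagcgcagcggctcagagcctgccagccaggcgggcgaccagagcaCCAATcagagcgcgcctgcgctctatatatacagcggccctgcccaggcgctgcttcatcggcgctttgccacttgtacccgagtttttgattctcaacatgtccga
HIST1H1E: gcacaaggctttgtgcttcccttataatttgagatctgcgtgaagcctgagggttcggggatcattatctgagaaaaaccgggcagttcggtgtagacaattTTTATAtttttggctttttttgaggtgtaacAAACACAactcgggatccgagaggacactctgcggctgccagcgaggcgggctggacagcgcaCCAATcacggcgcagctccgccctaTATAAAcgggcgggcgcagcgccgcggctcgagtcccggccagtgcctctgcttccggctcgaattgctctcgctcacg
HIST3H2A: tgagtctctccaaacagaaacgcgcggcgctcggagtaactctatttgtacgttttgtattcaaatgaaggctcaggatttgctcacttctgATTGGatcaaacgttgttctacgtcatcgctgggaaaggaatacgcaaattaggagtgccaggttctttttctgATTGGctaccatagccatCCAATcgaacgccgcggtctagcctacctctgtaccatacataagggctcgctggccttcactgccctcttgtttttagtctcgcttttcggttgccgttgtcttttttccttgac

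The same letters were counted over the set. Of the 54 genes, 48 had a promoter in the table. Among the 40 replication-dependent ones, 67.5% held the TATA letters, against 11.53% of all 35116 promoters, and 77.5% held CCAAT, against 34.614%. The H1 box was in both replication-dependent H1 promoters and in 12.5% of the 40, against 5.644% of all. The octamer was in 63.636% of H2A and 60% of H2B promoters, against 1.774% of all. Only 10% of the 10 H4 promoters held CCAAT. A match describes the letters in the window and no more.

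POM121, which encodes the siRNA target, fell in both lines. In 22Rv1DR it had 6.73 and 7.43 FPKM with construct 2, 7.68 and 7.81 FPKM with construct 1, against 38.5 and 37.8 FPKM in the controls. In DU145DR it had 12.5 and 13.2 FPKM with construct 2, 13.4 and 13.5 FPKM with construct 1, against 21.6 and 21.3 FPKM in the controls. The log2 changes by limma were -2.43 and -2.30 in 22Rv1DR and -0.74 and -0.67 in DU145DR (adjusted p = 2.75e-08, 4.57e-08, 0.00019 and 0.000172, construct 2 before construct 1). Between 12361 and 12569 symbols were above the floor in 22Rv1DR libraries and between 11884 and 12126 in DU145DR libraries. Of the line markers, HOXB13 was above the floor in 22Rv1DR alone and VIM and CD44 in DU145DR alone. The 4 epithelial markers KRT8, KRT18, EPCAM and CDH1 summed to 589.8 to 826.4 FPKM in 22Rv1DR and 114.3 to 122.4 FPKM in DU145DR, where CDH1 was listed at 0 and the others were above the floor. Of 9 markers of stroma, endothelium and blood, 7 were at 0 throughout, and COL1A1 and CD68 together summed to 9.85 to 11.2 FPKM in 22Rv1DR and 14.8 to 16.7 FPKM in DU145DR. The widest pair of libraries was 4C and 5C, whose log2 values differed with an SD of 0.317 over genes, against 0.206 to 0.266 in the other groups. Library 4A ran on the lanes that held the DU145DR libraries and the other 22Rv1DR libraries on another pair of lanes. For siRNA against control in 22Rv1DR, values without 4A are therefore the comparison within 1 pair of lanes. Between the controls of the lines, 5A and the DU145DR libraries differ in lanes as well as in line, which cannot be told apart there.

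Levels ran from the floor upward. The highest mean over the 12 libraries was that of H2AFZ, which encodes H2A.Z, at 385.6 FPKM (geometric mean). Among replication-dependent genes HIST1H1C (79.8 FPKM) and HIST1H2BK (78.7 FPKM) stood above HIST2H4A (20.4 FPKM), HIST2H2AA3 (18.1 FPKM) and all others. Lanes of a library differed by a median of 0.045 on the log2 scale where both were above 10 FPKM (208 pairs) and by 0.28 where 1 was at or below it (287 pairs), so the low genes are the less precise. HIST2H4A and HIST2H4B have identical values in every sample, as do HIST2H3A and HIST2H3C, since each pair has near-identical sequence and cannot be separated. HIST1H4J and HIST1H4K are almost as close. H3F3C and the pseudogene H3F3AP4 derive from H3.3 genes, and H3F3A itself is listed at 0 in every sample, so reads between these 3 may be assigned to the wrong copy.

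The sublines differed in most histone genes between their control libraries, as they did in most genes tested. Of 52 genes that could be tested, 37 differed between 22Rv1DR and DU145DR controls by limma (17 higher and 20 lower in 22Rv1DR). Of all 13622 genes tested, 83% did so (40.3% higher and 42.7% lower), the background for reading the histone count. Among histone genes measured separately the share was 72%, below that background. HIST2H4A and HIST2H4B are counted separately although their values are identical. The 37 include genes listed at 0 throughout a line, whose direction was set by the detection rule. These are HIST1H3D, HIST1H3E, HIST1H4D, HIST1H4E, HIST3H2A and HIST3H2BB at 0 in DU145DR, and H2AFJ and HIST1H2BL at 0 in 22Rv1DR. HIST1H2BK, an H2B gene, had 31.0 and 30.9 FPKM in 22Rv1DR controls, against 189 and 181 FPKM in DU145DR controls, a log2 difference of -2.58 ± 0.06 (SE; adjusted p = 7.27e-11). HIST1H1C, the gene of linker histone H1.2, had 27.4 and 28.9 FPKM in 22Rv1DR controls, against 130 and 133 FPKM in DU145DR controls (-2.22 ± 0.12, SE, adjusted p = 5.02e-08). HIST1H2AC, an H2A gene, had 6.88 and 9.34 FPKM in 22Rv1DR controls, against 28.7 and 26.9 FPKM in DU145DR controls (-1.79 ± 0.16, SE, adjusted p = 3e-06). In these 3 genes every 22Rv1DR control lay below every DU145DR control.

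Most variant genes were higher in 22Rv1DR controls. H1F0, which encodes the H1.0 of differentiated and resting cells, had 359 and 362 FPKM in 22Rv1DR controls, against 157 and 154 FPKM in DU145DR controls (1.21 ± 0.06, SE, adjusted p = 1.72e-08). H2AFZ differed by 0.94 ± 0.22 (SE; adjusted p = 0.00304), H3F3B, an H3.3 gene, by 0.91 ± 0.09 (SE; adjusted p = 6.42e-06), and H2AFY, the macroH2A1 gene, by 0.87 ± 0.05 (SE; adjusted p = 8.99e-08). Of the 10 variant genes above the floor in all 24 samples, 8 were higher and 1, H2AFY2, was lower in 22Rv1DR (log2 difference -0.65), and H2AFV, the gene of the second H2A.Z protein, did not pass the test. Of the 19 separately measured replication-dependent genes above the floor in all samples, 1 was higher and 13 lower in 22Rv1DR, with a median log2 difference of -0.99. HIST1H2BN, an H2B gene, was among the lower (-1.79 ± 0.23, SE, adjusted p = 4e-05), with 1.44 and 2.25 FPKM in 22Rv1DR controls, against 6.70 and 5.75 FPKM in DU145DR controls.

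Several genes were read in a single line and are given without a fold. HIST3H2A had 26.1 and 27.4 FPKM in 22Rv1DR controls and was listed at 0 in every DU145DR library. Its divergent neighbour HIST3H2BB, whose start lies 230 bases away, was likewise listed at 0 in DU145DR and had 1.33 to 4.00 FPKM across 22Rv1DR libraries, against 26.1 to 40.9 FPKM for HIST3H2A. HIST1H3D and HIST1H3E, both H3 genes, were also listed at 0 in every DU145DR library. H2AFJ, the H2A.J gene, was listed at 0 in every 22Rv1DR library and had 2.77 to 3.90 FPKM in DU145DR. HIST1H4C, an H4 gene, was near the floor in both lines, at 1.99 to 3.73 FPKM in 22Rv1DR libraries and at most 1.55 FPKM in DU145DR libraries.

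**Figure D1:**
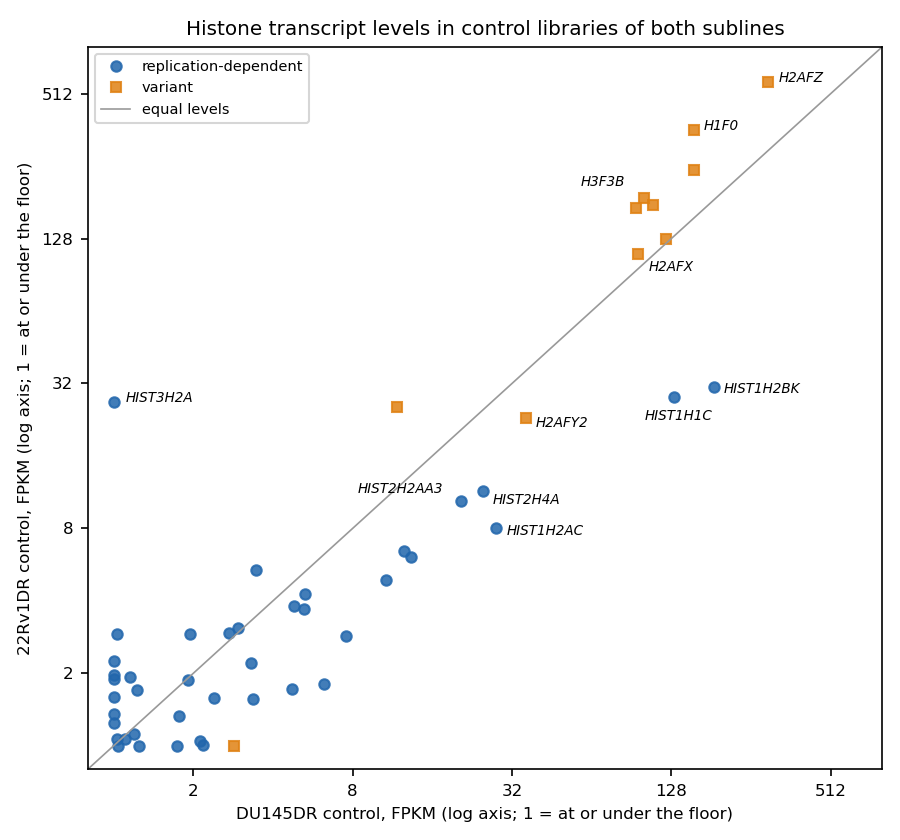
Mean control level of each histone gene in 22Rv1DR (vertical axis) against DU145DR (horizontal axis), FPKM on log axes, with replication-dependent and variant genes in different colours and the line of equal levels drawn. HIST1H2BK and HIST1H1C lie far below the line, at 30.9 against 184.8 FPKM and 28.2 against 131.2 FPKM, while HIST3H2A lies on the left edge at 26.7 FPKM, being listed at 0 in DU145DR.

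In 22Rv1DR, both linker histone genes of the replication-dependent class and several core histone genes were higher with each siRNA against POM121, while 4 of 6 H2A variants were lower with construct 1 and 1 of 6 with construct 2. With construct 2, 16 of the 52 genes passed the test in limma, 14 higher and 2 lower, when 35.1% of all genes did (14.5% higher and 20.6% lower). With construct 1, 16 passed, 12 higher and 4 lower, when 27.1% of all genes did (12% higher and 15.2% lower). The totals are near those shares, and the higher calls are above the shares of higher calls. HIST2H4A and HIST2H4B count as 2 in these totals although their values are 1 measurement. Members were chosen by detection, so such counts describe the set and support nothing. Among the 19 separate replication-dependent genes above the floor in all 24 samples, 7 were higher with construct 2 (median log2 change 0.43) and 7 with construct 1 (median 0.30). Over all genes the median was -0.03 with construct 2 and 0.00 with construct 1.

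The replication-dependent linker histone genes had the largest log2 changes of all members called with construct 2. HIST1H1C had 71.8 and 52.7 FPKM with construct 2, 55.5 and 51.3 FPKM with construct 1, against 27.4 and 28.9 FPKM in the controls. All 4 siRNA libraries lay above both controls, and the lower library with construct 2 lay between those of construct 1. The log2 change was 1.13 ± 0.12 (SE; adjusted p = 0.000314) with construct 2, a fold of 2.18, and 0.92 ± 0.12 (SE; adjusted p = 0.000586) with construct 1, a fold of 1.89. HIST1H1E, which encodes H1.4, had 6.61 and 5.04 FPKM with construct 2, 4.17 and 4.31 FPKM with construct 1, against 1.77 and 1.64 FPKM in the controls. Here all 3 groups were apart, at low levels. The changes were 1.76 ± 0.17 (SE; adjusted p = 0.000244), a 3.39-fold rise, with construct 2 and 1.32 ± 0.17 (SE; adjusted p = 0.000667), a 2.49-fold rise, with construct 1. Without library 4A they were 1.81 and 1.37 for HIST1H1E and 1.09 and 0.89 for HIST1H1C, all past the threshold.

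The HIST2 genes are core histone genes of the cluster on chromosome 1, apart from HIST2H2BC, a transcribed pseudogene. Of 8 measured separately, 3 rose with construct 2 and 2 of these also with construct 1. Of all genes, 14.5% and 12% were called higher with constructs 2 and 1. The subset is small, so its counts are a description only. HIST2H2AA3, an H2A gene, had 23.1 and 16.4 FPKM with construct 2, 17.0 and 17.2 FPKM with construct 1, against 10.3 and 10.5 FPKM in the controls. Every siRNA library exceeded both controls. The change was 0.90 ± 0.12 (SE; adjusted p = 0.000951) with construct 2 and 0.72 ± 0.12 (SE; adjusted p = 0.00282) with construct 1, or 0.89 and 0.70 without 4A. HIST2H4A, an H4 gene whose values are shared with HIST2H4B, had 20.1 and 16.04 FPKM with construct 2, 18.2 and 20.9 FPKM with construct 1, against 10.4 and 12.5 FPKM in the controls. The siRNA libraries again lay above the controls, and the libraries of the constructs overlapped. The change was 0.65 ± 0.12 (SE; adjusted p = 0.00344) with construct 2 and 0.77 ± 0.12 (SE; adjusted p = 0.00155) with construct 1. HIST2H2BE, an H2B gene, had 10.8 and 5.31 FPKM with construct 2, 5.48 and 5.51 FPKM with construct 1, against 3.60 and 3.83 FPKM in the controls. Library 4C alone reached the higher level. Its change of 1.03 ± 0.25 (SE; adjusted p = 0.0141) with construct 2 was 0.52 without 4C and 1.55 without 5C, and the call was lost without 4A (0.99) and without 5A. With construct 1 the change of 0.57 did not pass.

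In the large cluster on chromosome 6, HIST1H3H, an H3 gene, had 7.51 and 6.33 FPKM with construct 2, 7.37 and 6.12 FPKM with construct 1, against 4.52 and 4.02 FPKM in the controls. The groups of siRNA and control libraries did not overlap. The change was 0.69 ± 0.14 (SE; adjusted p = 0.00517) with construct 2 and 0.66 ± 0.14 (SE; adjusted p = 0.00754) with construct 1, the second lost without 5A or without 4B. HIST1H2BD, an H2B gene, had 12.6 and 10.9 FPKM with construct 2, 10.2 and 11.7 FPKM with construct 1, against 6.69 and 6.17 FPKM in the controls. All 4 siRNA libraries lay above both controls. The change was 0.87 ± 0.16 (SE; adjusted p = 0.00364) with construct 2 and 0.77 ± 0.16 (SE; adjusted p = 0.00704) with construct 1, the second lost without 5A or without 5B. HIST1H3D had 2.49 and 2.24 FPKM with construct 2, 2.47 and 2.38 FPKM with construct 1, against 1.92 and 1.33 FPKM in the controls. The siRNA libraries were higher at levels near the floor, with changes of 0.57 ± 0.14 (SE; adjusted p = 0.0131) and 0.60 ± 0.14 (SE; adjusted p = 0.0115) for constructs 2 and 1. The first was lost without 4C, the second without 4B or without 5B. Without 5A the HIST1H3D changes were 0.30 and 0.34, and without 4A they were 0.83 and 0.87.

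Other H2B genes, H3 genes and HIST3H2A gave weaker calls. HIST1H2BJ had 3.36 and 2.56 FPKM with construct 2, 3.15 and 2.38 FPKM with construct 1, against 1.85 and 1.59 FPKM in the controls, with changes of 0.77 ± 0.22 (SE; adjusted p = 0.0231) and 0.67 ± 0.22 (SE; adjusted p = 0.0476) for constructs 2 and 1. Both were lost without 4A, although the changes were then 0.88 and 0.78, and both were lost without 5A. The first was also lost without 4C, and the second without 4B, 5B, 1B, 2B, 1C or 2C. HIST1H2BK, the most abundant H2B gene, had 29.7 and 32.4 FPKM with construct 2, 36.4 and 34.4 FPKM with construct 1, against 31.0 and 30.9 FPKM in the controls. It rose with construct 1 by 0.19 ± 0.06 (SE; adjusted p = 0.0277), a call lost without 4A, 5A, 4B or 5B in turn, and its change with construct 2 was 0.00. HIST3H2A had 40.9 and 31.9 FPKM with construct 2, 26.3 and 29.2 FPKM with construct 1, against 26.1 and 27.4 FPKM in the controls. Libraries 4C and 5C were above the rest, with a change of 0.43 ± 0.10 (SE; adjusted p = 0.012), which did not pass without 4A (adjusted p = 0.0718) and was 0.25 without 4C (adjusted p = 0.026). HIST1H3E was the exception in direction, with 1.46 and 1.33 FPKM with construct 2, 1.77 and 2.84 FPKM with construct 1, against 2.51 and 1.99 FPKM in the controls and a change of -0.68 ± 0.19 (SE; adjusted p = 0.0211) with construct 2, lost without 4A (-0.51) or 5C. HIST1H2AC had 12.4 and 9.23 FPKM with construct 2, 8.41 and 9.91 FPKM with construct 1, against 6.88 and 9.34 FPKM in the controls. Its groups overlapped, and no change passed. HIST2H3A, which shares its values with HIST2H3C, had 1.85 and 2.52 FPKM with construct 2, 2.00 and 2.04 FPKM with construct 1, against 1.67 and 2.08 FPKM in the controls, and its groups overlapped. HIST1H4H, an H4 gene, had 5.46 and 3.93 FPKM with construct 2, 4.55 and 4.90 FPKM with construct 1, against 4.06 and 5.87 FPKM in the controls. Its groups overlapped as well, and no change of either gene passed.

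No H2A variant was called higher than control in 22Rv1DR, where H2AFJ is listed at 0. H2AFX, whose protein is phosphorylated at DNA breaks, had 109 and 92.2 FPKM with construct 2, 77.3 and 73.7 FPKM with construct 1, against 107 and 114 FPKM in the controls. Both construct 1 libraries were below all others. The change was -0.55 ± 0.08 (SE; adjusted p = 0.000967) with construct 1 and -0.60 without 4A. With construct 2 it was -0.14 and did not pass. H2AFV had 124 and 110 FPKM with construct 2, 103 and 105 FPKM with construct 1, against 126 and 128 FPKM in the controls. The construct 1 libraries were the lowest. Its change was -0.29 ± 0.05 (SE; adjusted p = 0.00419) with construct 1, and its change of -0.12 with construct 2 did not pass.

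Both macroH2A genes, whose proteins carry an added domain and are found on silent chromatin, were lower with construct 1. H2AFY had 158 and 161 FPKM with construct 2, 147 and 150 FPKM with construct 1, against 172 and 172 FPKM in the controls. The control libraries were above all 4 siRNA libraries. The change was -0.21 ± 0.05 (SE; adjusted p = 0.0118) with construct 1 and -0.11, not past the threshold, with construct 2. H2AFY2, the macroH2A2 gene, had 18.1 and 20.3 FPKM with construct 2, 19.7 and 20.2 FPKM with construct 1, against 22.8 and 23.0 FPKM in the controls. Here too both controls were the highest, with changes of -0.26 ± 0.06 (SE; adjusted p = 0.00872) and -0.20 ± 0.06 (SE; adjusted p = 0.0303) for constructs 2 and 1. With construct 1, both macroH2A calls were lost without 4A, 5A, 4B or 5B in turn. The construct 2 call of H2AFY2 was lost without 5A.

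H2AFZ, the most abundant member, had 657 and 359 FPKM with construct 2, 436 and 451 FPKM with construct 1, against 578 and 562 FPKM in the controls. Construct 1 lay below the controls, while the construct 2 libraries fell on either side of every other library. Its change was -0.23 with construct 2 (adjusted p = 0.454 in limma), and it was 0.20 without 5C (adjusted p = 0.00385) and -0.67 without 4C (adjusted p = 2.41e-05). No direction is therefore given for H2AFZ with construct 2.

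H3F3B, H3F3AP4 and H1F0 were higher with construct 2, and the first 2 of these with construct 1 also. H3F3B had 309 and 243 FPKM with construct 2, 242 and 247 FPKM with construct 1, against 190 and 187 FPKM in the controls. All 4 siRNA libraries were above both controls, with changes of 0.54 ± 0.09 (SE; adjusted p = 0.00233) and 0.38 ± 0.09 (SE; adjusted p = 0.0138) for constructs 2 and 1. The construct 1 call was lost without 4A, 5A, 4B or 5B in turn. The transcribed pseudogene H3F3AP4 had 312 and 312 FPKM with construct 2, 298 and 292 FPKM with construct 1, against 255 and 237 FPKM in the controls, in separate groups, with changes of 0.34 ± 0.06 (SE; adjusted p = 0.00242) and 0.26 ± 0.06 (SE; adjusted p = 0.00933). The second was lost without 5A or without 4B. H3F3C, a retrocopy of H3.3, had 44.8 and 26.9 FPKM with construct 2, 33.1 and 32.8 FPKM with construct 1, against 25.2 and 25.9 FPKM in the controls and did not pass with either construct. H1F0 had 492 and 439 FPKM with construct 2, 356 and 367 FPKM with construct 1, against 359 and 362 FPKM in the controls. Libraries 4C and 5C were above the other 4 libraries. The change was 0.37 ± 0.06 (SE; adjusted p = 0.00143) with construct 2 and 0.00 with construct 1. H1FX, a linker variant, had 227 and 189 FPKM with construct 2, 173 and 160 FPKM with construct 1, against 176 and 177 FPKM in the controls and did not pass against control.

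**Figure D2:**
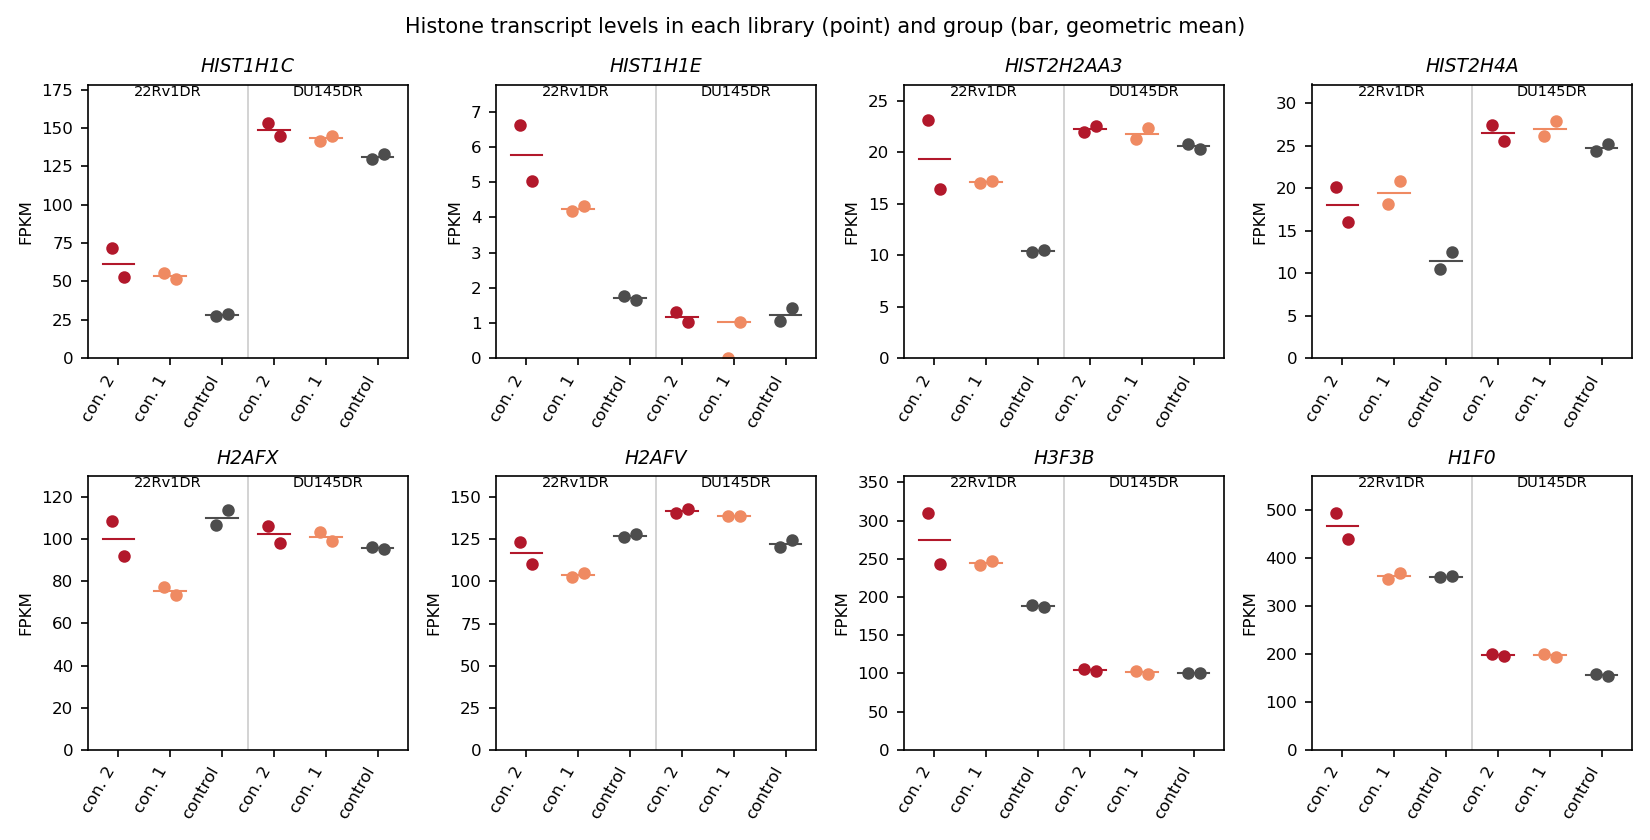
Level in FPKM, on linear axes from 0, of 8 histone genes in each library, with a panel for each gene, 22Rv1DR on the left and DU145DR on the right of a panel, points for libraries and bars for the geometric mean of the 2 libraries of a group, which takes a library listed at 0 as 1 FPKM. The 22Rv1DR siRNA libraries of HIST1H1C, HIST1H1E, HIST2H2AA3, HIST2H4A and H3F3B lie above both controls, whereas those of H2AFX with construct 1 lie below them, at 77.3 and 73.7 FPKM against 107 and 114 FPKM.

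**Figure D3:**
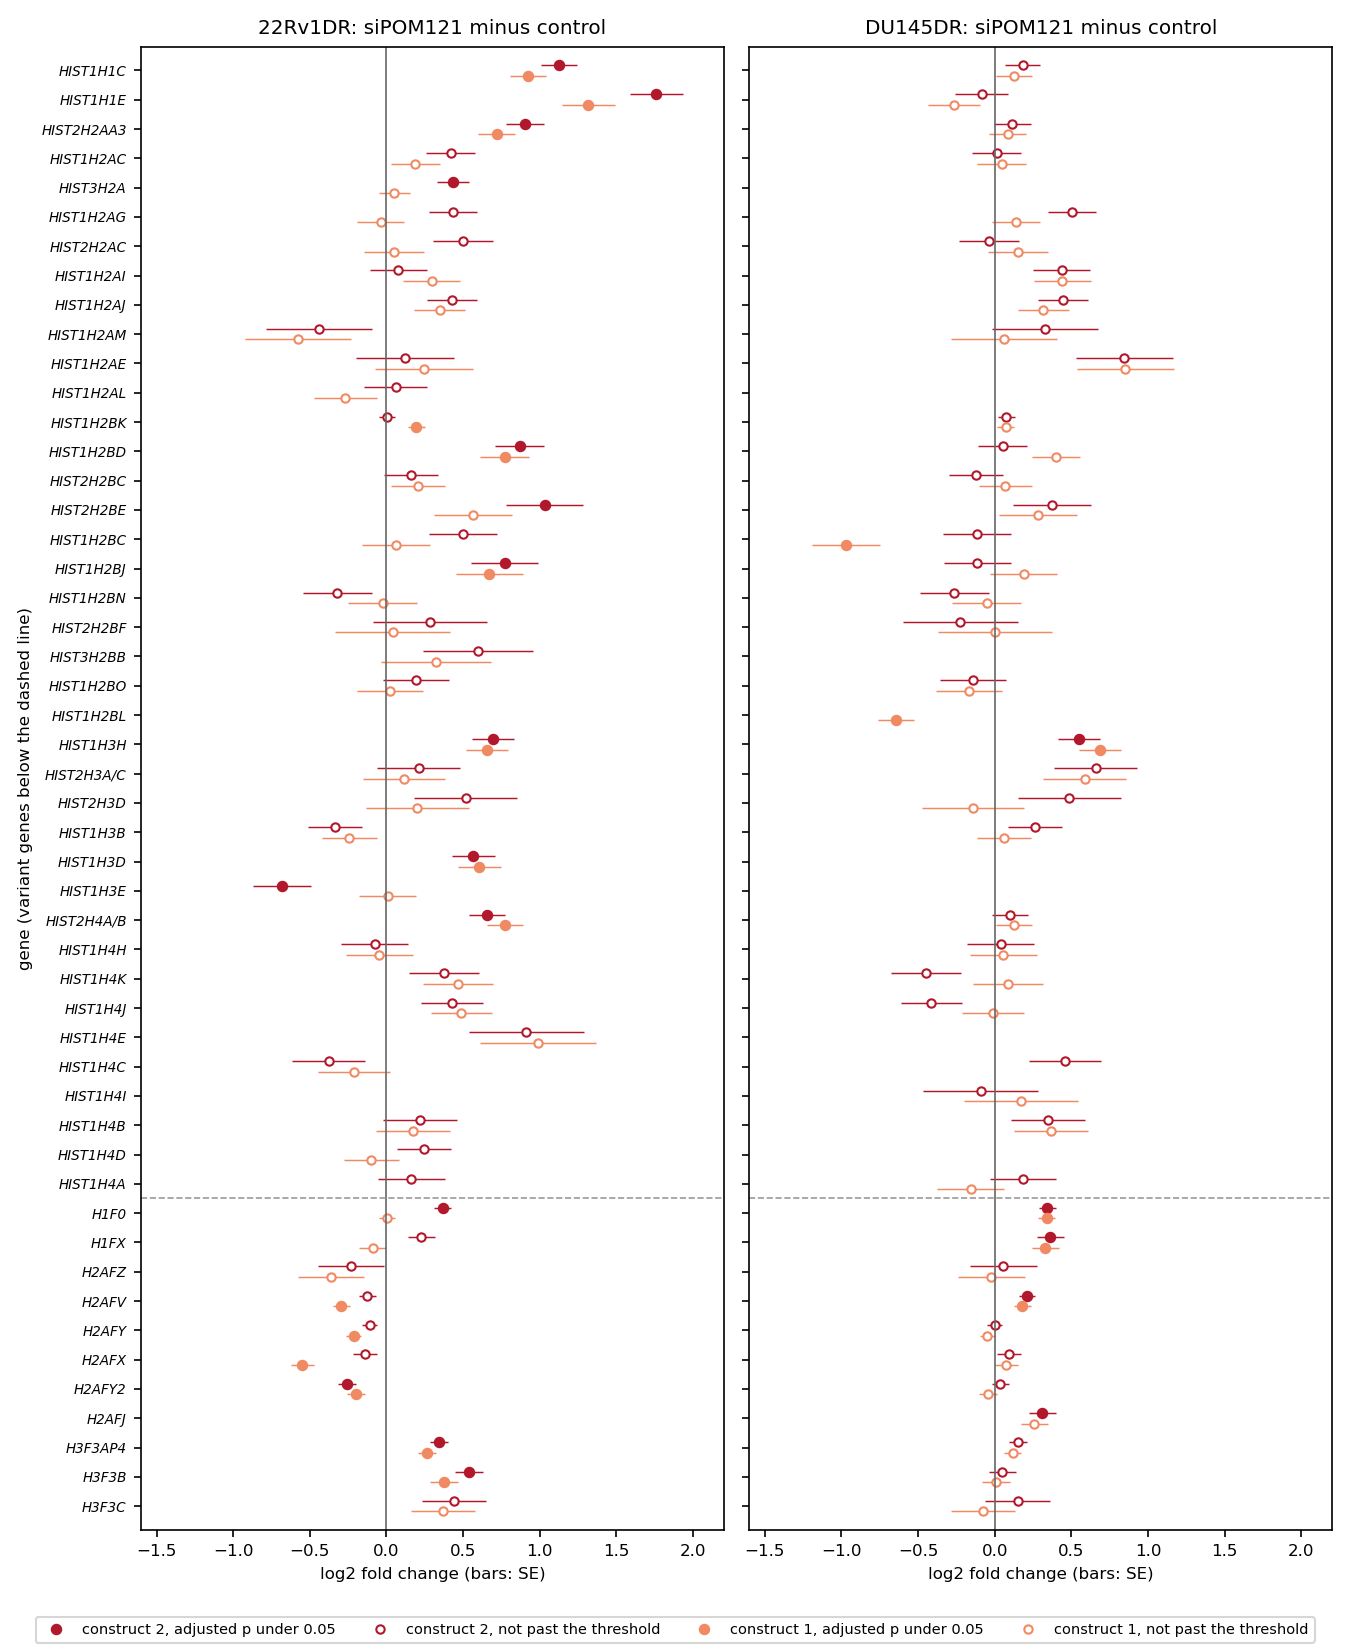
Log2 fold change of each tested histone gene, siPOM121 minus control, in 22Rv1DR (left) and DU145DR (right). Points are limma estimates with bars of 1 SE, filled where the adjusted p was under 0.05, construct 2 dark and construct 1 light, and a point is left out where a group is listed at 0 in both libraries. HIST1H1E and HIST1H1C lie farthest to the right in 22Rv1DR, at 1.76 and 1.13 with construct 2.

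The calls in 22Rv1DR depended on the fit. When that line was fitted alone, the counts were 5 with construct 2 (4 higher and 1 lower) and 4 with construct 1. The lower call with construct 2 was H2AFY (-0.11, adjusted p = 0.0417), which passed in that fit and not in the fit of both lines. The calls of HIST1H1E, H3F3AP4 and HIST1H2BD with both constructs, of HIST1H1C with construct 2 and of H2AFY with construct 1 passed there, and the other calls did not, HIST1H1C with construct 1 at an adjusted p of 0.0638. On a single lane, the calls of HIST1H2BD, HIST1H3H, HIST1H3D and HIST1H2BJ with both constructs, of HIST1H3E with construct 2 and of HIST1H2BK and H2AFY2 with construct 1 were lost on at least 1 of the 2 lanes. After quantile normalization those of H2AFY and HIST1H2BJ with construct 1 were lost, and with log2(FPKM + 1) those of HIST1H2BJ with both constructs and of HIST1H3E with construct 2. Without a filter on low values the HIST1H2BJ call with construct 1 was lost.

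Histone genes of 22Rv1DR were called between the constructs at near the share of all genes. Construct 2 minus construct 1 gave 5 calls of 52 (4 higher and 1 lower), when 11.6% of all genes were called (7.3% higher and 4.28% lower). H1F0 differed by 0.36 ± 0.06 (SE; adjusted p = 0.0056), H2AFX by 0.41 ± 0.08 (SE; adjusted p = 0.0134), H1FX by 0.32 ± 0.09 (SE; adjusted p = 0.0476), HIST3H2A by 0.38 ± 0.10 (SE; adjusted p = 0.047) and HIST1H3E by -0.69 ± 0.19 (SE; adjusted p = 0.047). The number of calls moved when single libraries were left out, most of all with 5C. The shares of all genes in such fits are not given, so these moves are not read as a result about histone genes. Without 4C the differences of HIST3H2A (0.20), H1FX (0.19) and HIST1H3E (-0.75) did not pass. That of HIST1H3E also failed without 5C (-0.62) and without 5B (-0.35). HIST3H2A, H1FX and HIST1H3E all failed without 4A, at unchanged differences. HIST1H1C differed by 0.20, with a 95% interval of -0.06 to 0.47, and HIST1H1E by 0.44, with an interval of 0.06 to 0.83. Neither passed the adjusted threshold (adjusted p = 0.12 for HIST1H1E), which does not show that the constructs act alike.

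In DU145DR, H1F0, H1FX, H2AFV and HIST1H3H rose with each construct, by at most 0.69 on the log2 scale. With construct 2, 6 of 52 genes passed (5 higher and 1 lower), when 16.6% of all genes did (11% higher and 5.62% lower). With construct 1, 6 passed (4 higher and 2 lower), when 19.8% did (12.2% higher and 7.62% lower). Both counts are below those shares. H1F0 had 199 and 195 FPKM with construct 2, 199 and 194 FPKM with construct 1, against 157 and 154 FPKM in the controls. Every siRNA library was above both controls, with changes of 0.34 ± 0.06 (SE; adjusted p = 0.004) and 0.34 ± 0.06 (SE; adjusted p = 0.00331) for constructs 2 and 1. These were the only histone calls in DU145DR to hold under every alternative and every library left out. H1FX had 144 and 137 FPKM with construct 2, 146 and 130 FPKM with construct 1, against 112 and 107 FPKM in the controls, again without overlap, with changes of 0.36 ± 0.09 (SE; adjusted p = 0.0221) and 0.33 ± 0.09 (SE; adjusted p = 0.0287). H2AFV had 140 and 143 FPKM with construct 2, 139 and 139 FPKM with construct 1, against 120 and 125 FPKM in the controls, with changes of 0.21 ± 0.05 (SE; adjusted p = 0.0282) and 0.18 ± 0.05 (SE; adjusted p = 0.046). The H1FX and H2AFV calls with both constructs were lost without 1A and without 2A. Also lost were those of H1FX without 1C or 2C (construct 2) and without 1B, 4A or 5A (construct 1). H2AFV was lost without 1C, 2C, 4B or 5B with construct 2, and with construct 1 it held only without 4C and without 5C.

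HIST1H3H was the replication-dependent gene that rose in DU145DR. It had 6.98 and 8.58 FPKM with construct 2, 8.33 and 8.69 FPKM with construct 1, against 5.74 and 4.88 FPKM in the controls. All siRNA libraries were above the controls, with changes of 0.55 ± 0.14 (SE; adjusted p = 0.0257) and 0.69 ± 0.14 (SE; adjusted p = 0.00834) for constructs 2 and 1. The first was lost without 2A or 2C, the second without 2A or 2B. H2AFJ had 3.90 and 3.19 FPKM with construct 2, 3.33 and 3.48 FPKM with construct 1, against 2.92 and 2.77 FPKM in the controls. It passed with construct 2 (0.31 ± 0.09, SE, adjusted p = 0.0423), a call lost without 1A, 2A, 1B, 2B, 1C, 4A, 5A, 4B or 5B in turn, and its change was 0.17 without 1C. HIST1H2BC, an H2B gene, had 7.05 and 6.90 FPKM with construct 2, 3.31 and 4.48 FPKM with construct 1, against 7.51 and 7.62 FPKM in the controls. The construct 1 libraries were the 2 lowest, and the change was -0.97 ± 0.22 (SE; adjusted p = 0.0149), lost without 1A, 2A or 1B. HIST1H2BL, an H2B gene, was listed at 0 in both construct 2 libraries and had a listed 0 and 1.23 FPKM with construct 1, against 1.95 and 1.55 FPKM in the controls. It met the detection rule only through those controls, so a lower value with siRNA was set by the choice of genes. Its lower calls, counted in the totals for both constructs, therefore support nothing. When DU145DR was fitted alone, the calls of H1FX, HIST1H3H and HIST1H2BL with both constructs and of H2AFJ were lost. On a single lane those of H2AFV and HIST1H3H with both constructs, of H2AFJ and of HIST1H2BC were lost on at least 1 lane, and after quantile normalization those of HIST1H3H and H2AFJ with construct 2. The H2AFJ call was also lost with log2(FPKM + 1).

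The replication-dependent genes that led in 22Rv1DR, HIST1H3H aside, did not pass the test in DU145DR. HIST1H1C had 153 and 145 FPKM with construct 2, 142 and 145 FPKM with construct 1, against 130 and 133 FPKM in the controls, and its change of 0.18 with construct 2 did not pass. HIST1H2BK had 200 and 189 FPKM with construct 2, 194 and 195 FPKM with construct 1, against 189 and 181 FPKM in the controls. HIST2H2AA3 had 22.0 and 22.6 FPKM with construct 2, 21.3 and 22.4 FPKM with construct 1, against 20.9 and 20.3 FPKM in the controls. In none of these did a change pass. HIST1H1E was at the floor, with a highest library value of 1.43 FPKM, in a control. HIST2H4A had 27.4 and 25.6 FPKM with construct 2, 26.1 and 27.9 FPKM with construct 1, against 24.4 and 25.2 FPKM in the controls, which did not pass. HIST1H2BD had 10.7 and 15.6 FPKM with construct 2, 15.6 and 17.3 FPKM with construct 1, against 11.9 and 13.0 FPKM in the controls. Construct 2 overlapped the controls and construct 1 lay above them, and neither change passed. No histone gene differed between the constructs in DU145DR by limma (0 of 52, when 0.022% of all genes were called, 0.00734% higher and 0.0147% lower), and 3 of 50 separate measurements had an unadjusted p under 0.05, when 5.32% of all genes did. The number of calls in DU145DR depended on single libraries, and the shares of all genes in those fits are not given. With construct 2, leaving out 2A gave 2, 1A gave 3, and 4C or 5C gave 10. With construct 1, leaving out 2A gave 2, 1A or 1B gave 3, and 1C or 2C gave 10.

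The difference between the lines was tested as an interaction, the mean change of both constructs in 22Rv1DR minus that in DU145DR. POM121 itself fell further in 22Rv1DR (log2 difference -1.66), so line and depth of knockdown cannot be told apart. The interaction passed for 11 of 52 genes (8 higher and 3 lower in 22Rv1DR), when 24.8% of all genes passed (8.93% higher and 15.9% lower). That total is below the share of all genes, and HIST2H4A and HIST2H4B are counted separately in it. HIST1H1E differed by 1.72 ± 0.21 (SE; adjusted p = 0.000919), HIST1H1C by 0.87 ± 0.14 (SE; adjusted p = 0.00341) and HIST2H2AA3 by 0.71 ± 0.15 (SE; adjusted p = 0.00998). In DU145DR HIST1H1E lay near the floor, at no more than 1.43 FPKM in any library, so its change there is no measure of size. HIST2H4A differed by 0.60 ± 0.14 (SE; adjusted p = 0.0168) and H3F3B by 0.43 ± 0.11 (SE; adjusted p = 0.0217). On the other side, H2AFX differed by -0.43 ± 0.09 (SE; adjusted p = 0.0111), H2AFV by -0.41 ± 0.07 (SE; adjusted p = 0.00343) and H2AFY2 by -0.23 ± 0.07 (SE; adjusted p = 0.0454). HIST1H3H, higher in each line, differed by 0.06 (adjusted p = 0.83). Without 4A the differences of HIST2H4A (0.48), H3F3B (0.44) and H2AFY2 (-0.23) no longer passed, and the total was 7. The HIST2H4A call was also lost without 1A or 2A and on the lower-numbered lanes (0.34), where H3F3B was lost too, that of H2AFX without 2A or 5A, that of H3F3B without 1A, 2A, 5A or 5B, and that of H2AFY2 without each other library except 4C and 5C. Without other single libraries the total lay between 5 and 19. The comparisons of a line share its control libraries, and each is given with its own values.

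Summed over the class, replication-dependent RNA was higher in siRNA libraries of 22Rv1DR. The sum was 321.2 and 258.7 FPKM with construct 2, 262.2 and 259.8 FPKM with construct 1, against 183 and 206.1 FPKM in the controls. All 4 siRNA libraries were above both controls, and 4C stood above the rest. The group means were 290 FPKM with construct 2, 261 FPKM with construct 1, against 194.5 FPKM in the controls. With H2AFX counted in, for its stem-loop, they were 390.4, 336.5 and, in the controls, 304.9 FPKM. In DU145DR the sum was 544.7 and 528.5 FPKM with construct 2, 526.1 and 539.4 FPKM with construct 1, against 497.9 and 495 FPKM in the controls, again without overlap. HIST1H1C and HIST1H2BK made up 29% to 35% of this sum in 22Rv1DR libraries and 63% to 64.9% in DU145DR libraries. Without those genes the sum in 22Rv1DR was 219.7 and 173.6 FPKM with construct 2, 170.3 and 174.1 FPKM with construct 1, against 124.6 and 146.3 FPKM in the controls. In DU145DR it was 191.3 and 194.3 FPKM with construct 2, 190.8 and 199.6 FPKM with construct 1, against 179.3 and 181.4 FPKM in the controls.

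Summed variant RNA gave another picture. In 22Rv1DR it was 2451 and 1953 FPKM with construct 2, 1884 and 1899 FPKM with construct 1, against 2011 and 1990 FPKM in the controls. The construct 2 libraries lay on either side of the controls and those of construct 1 below them. In DU145DR it was 1337 and 1294 FPKM with construct 2, 1309 and 1245 FPKM with construct 1, against 1184 and 1179 FPKM in the controls. The ratio of replication-dependent to variant RNA in 22Rv1DR was 0.131 and 0.132 with construct 2, 0.139 and 0.137 with construct 1, against 0.091 and 0.104 in the controls. All 4 siRNA libraries, 4C among them, were above both controls in this ratio. In DU145DR it was 0.407 and 0.409 with construct 2, 0.402 and 0.433 with construct 1, against 0.421 and 0.42 in the controls. There construct 2 lay below both controls and construct 1 on either side of them.

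**Figure D4:**
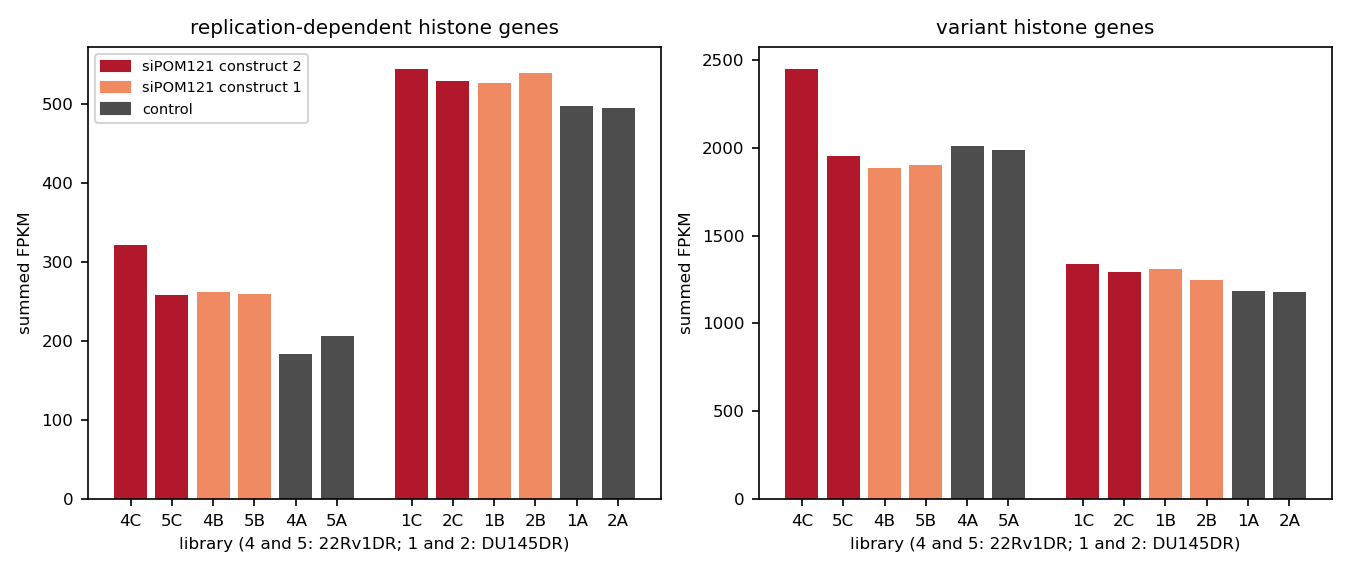
Summed FPKM of the replication-dependent (left) and variant (right) histone genes in each of the 12 libraries, coloured by treatment, with 22Rv1DR on the left of each panel. The 22Rv1DR siRNA libraries reach 258.7 to 321.2 FPKM of replication-dependent RNA, against 183 and 206.1 FPKM in the controls, while their variant RNA lies on both sides of the controls.

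By family, the replication-dependent H4 sum in 22Rv1DR was 46 and 40 FPKM with construct 2, 41.5 and 45.7 FPKM with construct 1, against 25.4 and 36.2 FPKM in the controls. The H2A sum was 99.3 and 77.7 FPKM with construct 2, 70.5 and 71.3 FPKM with construct 1, against 57.9 and 64.6 FPKM in the controls. The H2B sum was 79.9 and 68.4 FPKM with construct 2, 74.7 and 70.3 FPKM with construct 1, against 56.9 and 61.5 FPKM in the controls. The H3 sum was 17.6 and 14.8 FPKM with construct 2, 15.9 and 16.8 FPKM with construct 1, against 13.5 and 13.3 FPKM in the controls. In each of the 4 core families the siRNA libraries lay above both controls, but only a minority of their genes were called higher. With construct 2 these were 1 of 10 separate H4 genes, 2 of 10 H2A, 3 of 11 H2B and 2 of 6 H3 genes, and 1 H3 gene was called lower. With construct 1 they were 1 of 10, 1 of 10, 3 of 11 and 2 of 6. Of all genes, 14.5% and 12% were called higher with constructs 2 and 1. The sums therefore do not show a rise across a family.

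The genes that drive and process histone messengers, from lists chosen with earlier results of these data known, are given beside the shares of all genes. In 22Rv1DR 20.6% of all genes were called lower and 14.5% higher with construct 2, and 15.2% lower and 12% higher with construct 1. Of 25 genes of S phase and DNA replication, 20 fell with construct 2 in 22Rv1DR (median log2 change -0.52), and 23 fell and 1 rose with construct 1 (-0.81). Their summed level was 875.7 to 932.3 FPKM with construct 2, 703.1 to 710 FPKM with construct 1, against 1232 FPKM in both controls. MCM3, a subunit of the replicative helicase, had 20 and 19.9 FPKM with construct 2, 15.5 and 16.4 FPKM with construct 1, against 32.7 and 32.7 FPKM in the controls. In DU145DR 2 of the 25 fell with construct 2 and 4 with construct 1 (medians -0.04 and -0.09), when 5.62% and 7.62% of all genes did, with sums of 1688 to 1726 FPKM with construct 2, 1661 to 1699 FPKM with construct 1, against 1744 to 1775 FPKM in the controls. Their part in the histone values was not tested.

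SLBP, which binds the stem-loop, had 57.3 and 57.7 FPKM with construct 2, 48.7 and 50.6 FPKM with construct 1, against 66.2 and 66.8 FPKM in the controls of 22Rv1DR. It fell with both, by 0.21 and 0.42 on the log2 scale (adjusted p = 0.00469 and 0.000137 in limma). In DU145DR it had 84.2 and 81.2 FPKM with construct 2, 79.3 and 80.8 FPKM with construct 1, against 82.9 and 80.6 FPKM in the controls. Of 38 genes of histone messenger 3-prime processing and decay, 10 fell and 2 rose with construct 2 and 15 fell and 1 rose with construct 1 in 22Rv1DR (medians -0.09 and -0.18), while 3 and 4 fell in DU145DR with constructs 2 and 1. The 10 of 38 and the DU145DR counts are near the shares of all genes called lower. SRRT, which links the cap complex to 3-prime processing, fell by 0.65 with construct 2 (adjusted p = 0.000473) and by 0.61 with construct 1 (adjusted p = 0.00045). Of 19 genes of histone gene transcription, 8 fell and 1 rose with construct 2 and 4 fell and 2 rose with construct 1, the second pair of counts being near the shares of all genes. Among these, E2F1, a driver of S phase entry, had 17.8 and 15.9 FPKM with construct 2, 11.9 and 11.5 FPKM with construct 1, against 20.7 and 22.3 FPKM in the controls. In DU145DR 2 of the 19 fell with construct 2 and 1 with construct 1.

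Because tail-less RNA can pass a poly(A) selection in part, 32 RNAs without a poly(A) tail were looked up. Of the 12 that could be tested, 3 rose with each construct in 22Rv1DR, namely TERC, SCARNA7 and SCARNA13, when 14.5% and 12% of all genes did with constructs 2 and 1. In DU145DR 0 of 12 passed with either construct in limma, with 2 and 1 of them at an unadjusted p under 0.05 for constructs 2 and 1. TERC, the telomerase RNA, had 17.6 and 19.5 FPKM with construct 2, 15.6 and 15.7 FPKM with construct 1, against 9.01 and 12.7 FPKM in the controls of 22Rv1DR (log2 change 0.79, adjusted p = 0.00287, and 0.55, adjusted p = 0.017). The summed level of the 17 RNAs above the floor was 225.9 to 325.4 FPKM with construct 2, 288.4 to 293.6 FPKM with construct 1, against 143.4 to 317.3 FPKM in the controls of 22Rv1DR. In DU145DR it was 187.6 to 201.9 FPKM with construct 2, 53.8 to 124.9 FPKM with construct 1, against 58.5 to 170.6 FPKM in the controls. RMRP, a part of RNase MRP, ranged over libraries of 1 group as widely as over groups, at 29.6 FPKM in 4A and 103.7 FPKM in 5A. The part of these RNAs in the histone values was not tested.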

How the data were processed

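Polyadenylated RNA of 2 human cell sublines was measured in 12 libraries, prepared with a TruSeq version 2 kit that does not mark strand, each run on 2 lanes. The submitters' processing notes name TopHat and Cufflinks with no version. The authors deposited log2 FPKM per symbol, with every value of 1 FPKM or less listed as 0. No header states the base of the logarithm. Taken as powers of 2, 100% of values above 0 were numbers of 6 digits (tolerance 0.02 in the last digit), against 3.97% with base e. Read depth is unknown, so no counting interval is given, and 52.831% of values are 0. The table holds 27026 lines for 25277 symbols. For the 605 repeated symbols the line highest on average was used. Lanes of a library were averaged on the log2 scale, and no pseudocount was added. Antisense or overlapping transcripts cannot be told apart in unstranded libraries.

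All 13622 symbols above the floor on both lanes of at least 2 libraries were fitted with limma 3.58.1 in R 4.3.3 (trend and robust variance, a mean for each of 6 groups, no block), with two-sided tests and Benjamini-Hochberg adjustment over all symbols and a threshold of 0.05. Of the members, HIST1H2AK and HIST4H4 were too low to be fitted. Tables and figures used Python 3.11.15, pandas 2.3.3, numpy 2.4.6 and matplotlib 3.10.9. The fit was tested on simulated data. Genes described with library values were the 2 highest of each family and class and the 25 with the smallest adjusted p in any comparison. Values of every group are not printed for each of these genes. H2AFX, HIST1H3D, HIST2H2BE and HIST3H2BB were added after their values were seen. The members and the gene lists were chosen with earlier results of these data known. The alternatives were log2(FPKM + 1), no filter on low values, quantile normalization, a replicate block, each line fitted alone, 1 lane only, the first line of repeated symbols, H2AFX counted as replication-dependent, and each library left out.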

Additional observations from a re-analysis of the deposited data

Results flagged for a closer look

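The change with siRNA against POM121 differed between the sublines in 11 of 52 histone genes by the limma interaction test. The test took the mean of both constructs minus control, 22Rv1DR minus DU145DR, with n = 2 libraries a group. That total is below the 24.8% of all genes that passed. POM121 itself fell further in 22Rv1DR (log2 difference -1.66), so line and depth of knockdown cannot be told apart. HIST1H1E differed by 1.72 on the log2 scale (change 1.54 in 22Rv1DR and -0.18 in DU145DR, where it is near the floor, adjusted p = 0.000919). HIST1H1C differed by 0.87 (changes 1.02 and 0.15, adjusted p = 0.00341). HIST2H2AA3 differed by 0.71 (0.81 and 0.10, adjusted p = 0.00998), and HIST2H4A and HIST2H4B, with identical values, by 0.60 (0.71 and 0.11, adjusted p = 0.0168). H3F3B differed by 0.43 (0.46 and 0.03, adjusted p = 0.0217). H2AFX differed by -0.43 (-0.34 and 0.08, adjusted p = 0.0111), H2AFV by -0.41 (-0.21 and 0.20, adjusted p = 0.00343) and H2AFY2 by -0.23 (changes -0.23 and -0.004, adjusted p = 0.0454). HIST1H2BL (0.72) is listed at 0 in all 22Rv1DR libraries and met the detection rule only through the DU145DR controls. HIST1H3D (0.59, adjusted p = 0.0343) is listed at 0 in all DU145DR libraries. These 2 differences rest on the floor of the table and are no measure of size. Each siRNA library of 22Rv1DR lay on the stated side of both its controls in HIST1H1E, HIST1H1C, HIST2H2AA3, HIST2H4A, H3F3B, H2AFV and H2AFY2. These genes had already passed the test, and the share of all genes separated in this way is not given. The separation is therefore a description and adds no support.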

How the results depend on the processing

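Counts of histone genes past the threshold moved with the spread assumed. With each line fitted alone they were 5 (22Rv1DR, construct 2), 4 (22Rv1DR, construct 1), 3 (DU145DR, construct 2) and 3 (DU145DR, construct 1), against 16, 16, 6 and 6, and 0 against 5 between the constructs in 22Rv1DR. That last count was 2 with log2(FPKM + 1), 2 without a filter, 3 after quantile normalization and 2 on the higher-numbered lanes, on which DU145DR with construct 2 gave 3. Leaving out 1 library gave 12 to 23 (22Rv1DR, construct 2), 8 to 19 (22Rv1DR, construct 1), 2 to 10 (DU145DR, each construct), 1 to 18 between the constructs in 22Rv1DR, 0 to 0 in DU145DR, 30 to 39 between controls and 5 to 19 for the interaction (7 without 4A). For construct 1 in 22Rv1DR the low counts were 9 without 5A, 8 without 4B and 9 without 5B. H2AFZ changed sign without 5C (0.20 against -0.23 with construct 2), and, between constructs, without 4C (-0.30 against 0.13). The cause of these moves was not tested. The shares of all genes in these fits are not given, so the counts describe the fits alone. With a replicate block the count between constructs in 22Rv1DR was 3. Same-numbered libraries correlated at -0.102 to 0.126 in their deviations from the group means. With 2 libraries a group these deviations mirror each other, so such weak values cannot settle whether the numbers pair the samples. The block moved no other count of calls by over 1.5 times. Of the calls of siRNA against control, the block ended those of H2AFJ with construct 2 and of H2AFV with construct 1 in DU145DR. On the lower-numbered lanes the replication-dependent sum was 549.9 (DU145DR, construct 2, against 536.6 on both lanes) and 490.4 (DU145DR controls, against 496.5) and the variant sum 1174 FPKM (DU145DR controls, against 1181). On the higher-numbered lanes they were 500.1 and 1190 FPKM in DU145DR controls and 258 FPKM for replication-dependent genes in 22Rv1DR with construct 1 (against 261). Counting H2AFX as replication-dependent gave replication-dependent sums of 390.4, 336.5 and 304.9 FPKM in 22Rv1DR and 639, 634 and 592.5 FPKM in DU145DR (construct 2, construct 1, control), against 290, 261 and 194.5 FPKM and 536.6, 532.8 and 496.5 FPKM. The variant sums were then 1816 and 1890 FPKM in 22Rv1DR (construct 1, control) and 1213, 1176 and 1085 FPKM in DU145DR (construct 2, construct 1, control), against 1891 and 2000 FPKM and 1315, 1277 and 1181 FPKM. Values near the floor of 1 FPKM, unknown depth, and n of 2 limit what could be seen.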
